A study of Mus musculus with 20 samples.

Results

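The 10 genes described here are the glycosyltransferases that build brain gangliosides: Ugcg, B4galt6, B4galt5, St3gal5, B4galnt1, B3galt4, St3gal2, St8sia1, St8sia3 and St8sia5. They were chosen by name, for their place in the pathway, from the 54532 genes of the count table. All 10 passed the filter on low counts and were among the 18336 genes tested. The libraries were made from mouse brain of 4 genotypes with 5 libraries each: wild type (WT), a Glb1 knockout (Glb1KO), a Neu3 knockout (Neu3KO) and a double knockout of Glb1 and Neu3 (DKO). Glb1 encodes the lysosomal beta-galactosidase that cuts GM1 ganglioside, and its loss is the cause of GM1 gangliosidosis. Neu3 encodes a sialidase that removes sialic acid from gangliosides. The study asked how Neu3 acts on GM1 storage, so the double knockout was set against both single knockouts and WT. The mice came from The Jackson Laboratory, and RNA was taken from a single hemisphere per sample, with mRNA selected by its poly(A) tail. The labels give no age and no position of the deleted part of either gene, and they tie no knockout to a cell type. They do not say whether the libraries of a genotype came from different litters. The p-values set genotype differences against the spread between these libraries only.

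Gangliosides are sialic acid-bearing glycolipids that are abundant in neuronal membranes. Ugcg puts glucose on ceramide, B4galt5 and B4galt6 add galactose to give lactosylceramide, and St3gal5 adds the sialic acid that makes GM3. St8sia1 adds a further sialic acid to make GD3, and St8sia5 and St8sia3 can extend the sialic acid chain, St8sia3 also on glycoproteins. B4galnt1 adds N-acetylgalactosamine, B3galt4 then adds galactose to give GM1 or its relatives, and St3gal2 caps these to give GD1a and GT1b, the major gangliosides of adult brain. Glb1, Neu3 and other lysosomal and membrane enzymes take the same lipids apart.

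Total counts ran from 15162311 to 25145806 per library. WT replicate 1 stood apart from the other WT libraries, with a chi-square per degree of freedom over genes of 21.9 to 29.8 against each of them. The other WT pairs were at 3.44 to 5.51, and pairs within the other genotypes reached at most 14.2. Glb1 stood at 18.2 to 21.8 CPM in WT and 19.0 to 21.8 in Neu3KO, and at 2.30 to 4.56 in Glb1KO and 2.39 to 5.31 in DKO. CPM are counts scaled to library size, here with TMM factors, which correct for a few genes taking up much of a library. Neu3 was low in every genotype, at 2.32 to 5.53 CPM in WT, 3.18 to 4.88 in Glb1KO, 2.45 to 3.30 in Neu3KO and 2.07 to 4.31 in DKO, so its level does not check the Neu3 labels. Identifiers begin with E in all 5 WT libraries, 2 Glb1KO, 1 Neu3KO and 2 DKO libraries. The other 3 Glb1KO identifiers begin with L. Those of the other 4 Neu3KO and 3 DKO samples begin with W, and the meaning of these letters is not given. The tissue label was checked against marker lists for neurons, astrocytes, oligodendrocytes and microglia, and none of their genes was at 0 in any genotype.

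Promoter sequences are shown for the enzymes of the opening steps, the glucosyltransferase Ugcg, the galactosyltransferase B4galt5 and the GM3 synthase St3gal5, because Ugcg was lower in DKO while St3gal5 was the enzyme closest to its WT level. They run from 250 bases before to 50 bases after the start site and come from RefSeq on GRCm38.p6, in which 5 of the 10 genes matched (these 3, St8sia1 and B3galt4). RefSeq's start site of Ugcg lies inside the gene as the deposited table bounds it, and the whole Ugcg window falls within chr4:59189257-59222833. Capitals mark the GC box, GGGCGG or its reverse CCGCCC, and the CCAAT box, CCAAT or its reverse ATTGG. The windows are chr4:59189300-59189599 on the plus strand for Ugcg, chr2:167349129-167349428 on the minus strand for B4galt5 and chr6:72097358-72097657 on the plus strand for St3gal5.
Ugcg: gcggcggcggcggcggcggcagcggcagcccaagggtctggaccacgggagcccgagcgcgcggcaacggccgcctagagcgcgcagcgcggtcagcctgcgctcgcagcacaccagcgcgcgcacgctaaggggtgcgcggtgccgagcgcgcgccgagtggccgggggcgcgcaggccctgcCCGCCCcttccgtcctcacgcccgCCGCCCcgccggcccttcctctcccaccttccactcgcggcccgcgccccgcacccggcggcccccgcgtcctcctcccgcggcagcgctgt
B4galt5: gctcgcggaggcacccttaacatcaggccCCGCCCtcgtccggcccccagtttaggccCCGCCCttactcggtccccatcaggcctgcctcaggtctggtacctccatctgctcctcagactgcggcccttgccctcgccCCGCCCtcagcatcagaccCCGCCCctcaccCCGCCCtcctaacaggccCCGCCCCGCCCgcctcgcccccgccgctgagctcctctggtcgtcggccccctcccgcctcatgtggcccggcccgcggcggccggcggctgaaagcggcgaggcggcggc
St3gal5: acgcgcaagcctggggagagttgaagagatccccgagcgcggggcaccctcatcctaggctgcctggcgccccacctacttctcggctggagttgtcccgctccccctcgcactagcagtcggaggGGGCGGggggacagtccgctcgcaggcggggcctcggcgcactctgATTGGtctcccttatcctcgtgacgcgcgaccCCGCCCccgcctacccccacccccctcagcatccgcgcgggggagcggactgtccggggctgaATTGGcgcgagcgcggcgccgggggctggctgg
GC content was 81.3% for Ugcg, 75.0% for B4galt5 and 72.7% for St3gal5, where the median of 32851 promoters of this length was 52.7%. The GC box, searched on both strands, was present in 5 of the 5 matched promoters and in 35.7% of all promoters, with 7 matches in B4galt5, 2 of them sharing a base, and 2 each in Ugcg and St3gal5. CCAAT was present in 2 of the 5, St3gal5 and St8sia1, and in 37.4% of all. The E-box CACGTG was in 0 of the 5 and 7.15% of all, and TATAAA in 0 of the 5 and 13.6% of all. These matches describe letters in a window and are not binding sites.

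In WT brain the 10 enzymes differed widely in level per length of transcript, given as the authors' FPKM (fragments scaled to transcript length and library depth). The order began with St3gal5 at 42.0 ± 1.71 (SD, n = 5), B4galt6 at 34.4 ± 2.02 and St8sia5 at 30.3 ± 0.775. St3gal2 followed at 26.9 ± 0.573, B4galnt1 at 23.3 ± 1.83, St8sia3 at 19.1 ± 1.03 and Ugcg at 19.0 ± 0.976. B4galt5 at 13.7 ± 0.465, St8sia1 at 10.3 ± 0.237 and B3galt4 at 2.08 ± 0.533 FPKM closed it. The enzyme that makes GM3 was thus 20.2 times as high as the GM1-making galactosyltransferase. St8sia3 and Ugcg were the only neighbours whose WT libraries overlapped. In Glb1KO, Neu3KO and DKO, the mean of St3gal2 stood above that of St8sia5, but their libraries overlapped in each. The means were 26.8 and 26.3 FPKM in Glb1KO and 24.4 and 21.5 FPKM in DKO.

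**Figure D1:**
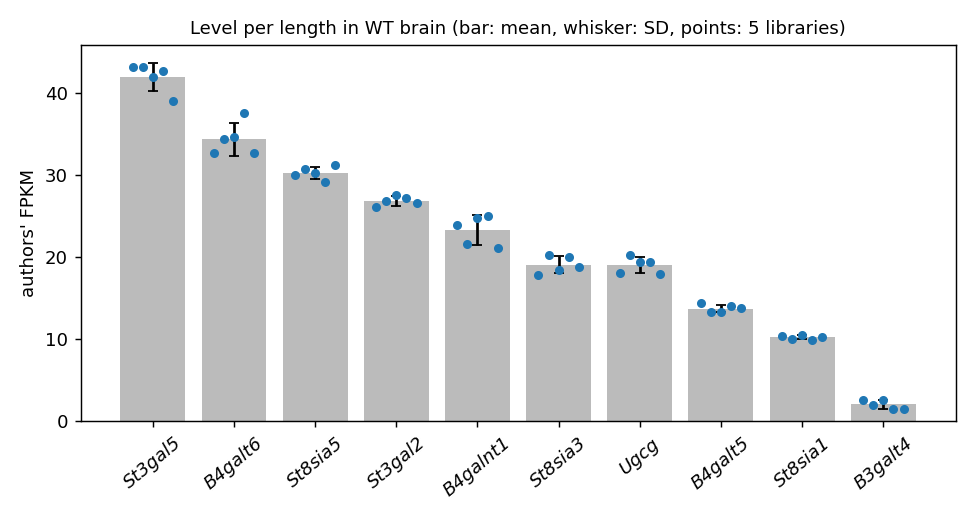
FPKM of the 10 enzymes in the 5 WT libraries, ordered by mean, with points for libraries, bars for the mean and whiskers for the SD. St3gal5 is highest at 42.0 and B3galt4 lowest at 2.08 FPKM.

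Against WT, 4 of the 10 enzymes were lower in DKO, none was higher and 6 did not pass (edgeR quasi-likelihood test, Benjamini-Hochberg adjusted p under 0.05 over all genes). The enzymes that fell were Ugcg, which commits ceramide to the pathway, B4galnt1, which opens the complex gangliosides, St3gal2, which caps them, and St8sia5, which extends sialic acid chains. St8sia5 stood at 70.7% of WT and the other 3 between 84.9% and 90.5%. Of all genes tested, 15.1% were lower and 14% higher in this comparison. In bulk brain, fewer cells of a type and less RNA per cell cannot be told apart. The log2 change was below 0 for 9 of the 10, with a median of -0.14 beside -0.003 over all genes, and B3galt4 was the exception. DKO and WT libraries did not overlap for 4 enzymes, Ugcg, B4galt5, St3gal2 and St8sia5, all lower in DKO, where 9.35% of all genes were lower without overlap. Without WT replicate 1, the library that stood apart, the same 4 enzymes passed: Ugcg at -0.21 (adjusted p = 0.00266), B4galnt1 at -0.22 (0.0171), St3gal2 at -0.15 (0.0195) and St8sia5 at -0.50 (0.000156). In the authors' deposited table for DKO against WT, 4 enzymes had an adjusted p under 0.05, namely Ugcg, B4galnt1, St3gal2 and St8sia5.

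**Figure D2:**
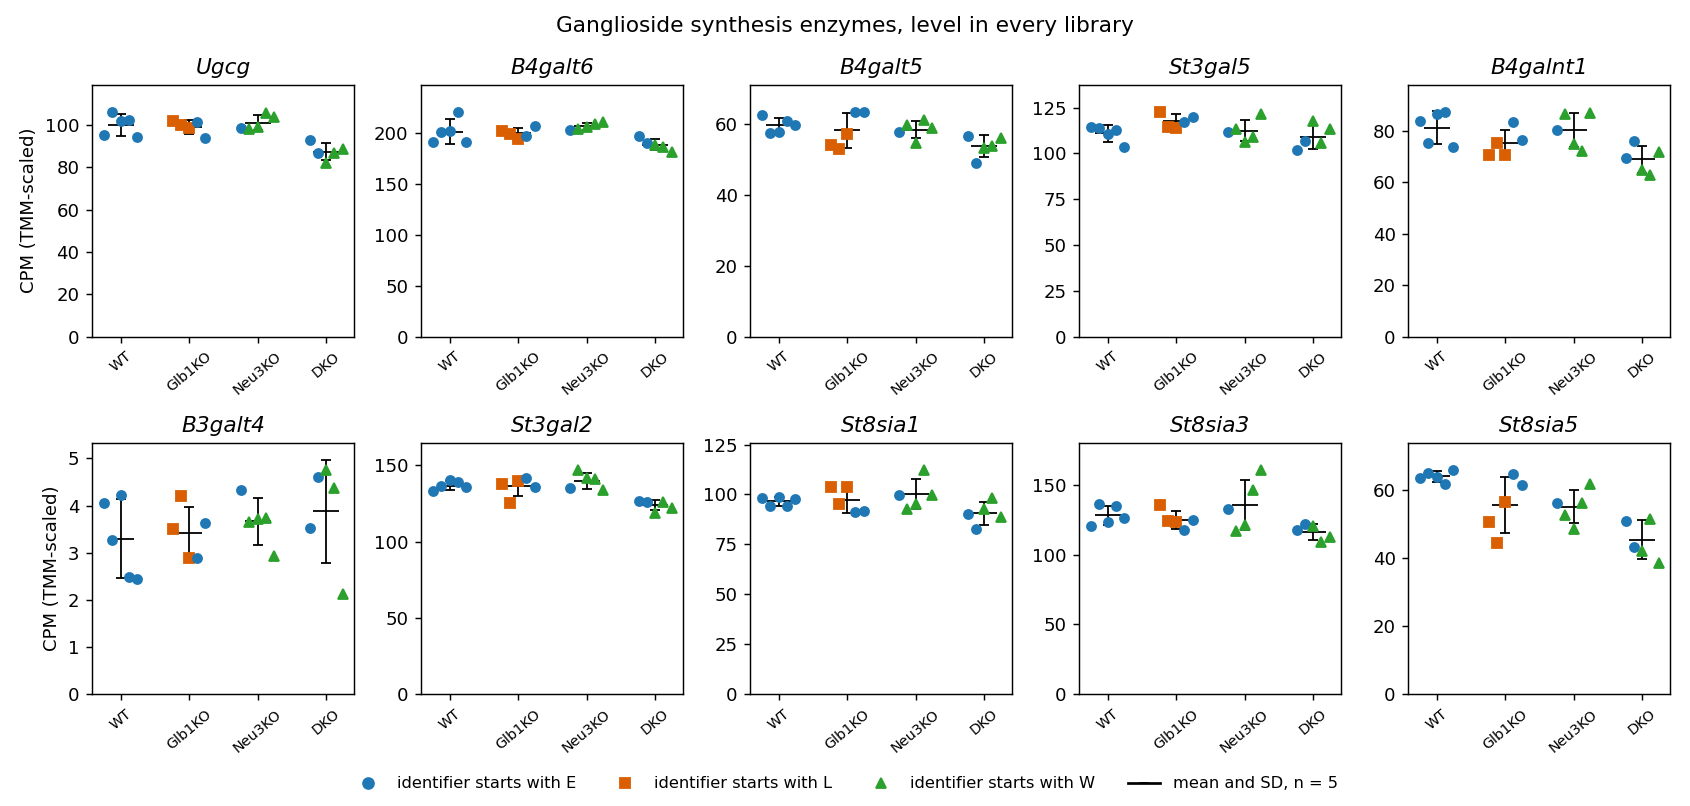
TMM-scaled CPM of each enzyme in all 20 libraries by genotype, with mean and SD (n = 5) and marker shape for the starting letter of the identifier. Each axis starts at 0, and the DKO libraries of St8sia5 lie at 38.7 to 51.6 CPM below the WT libraries at 61.8 to 66.0 CPM.

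**Figure D3:**
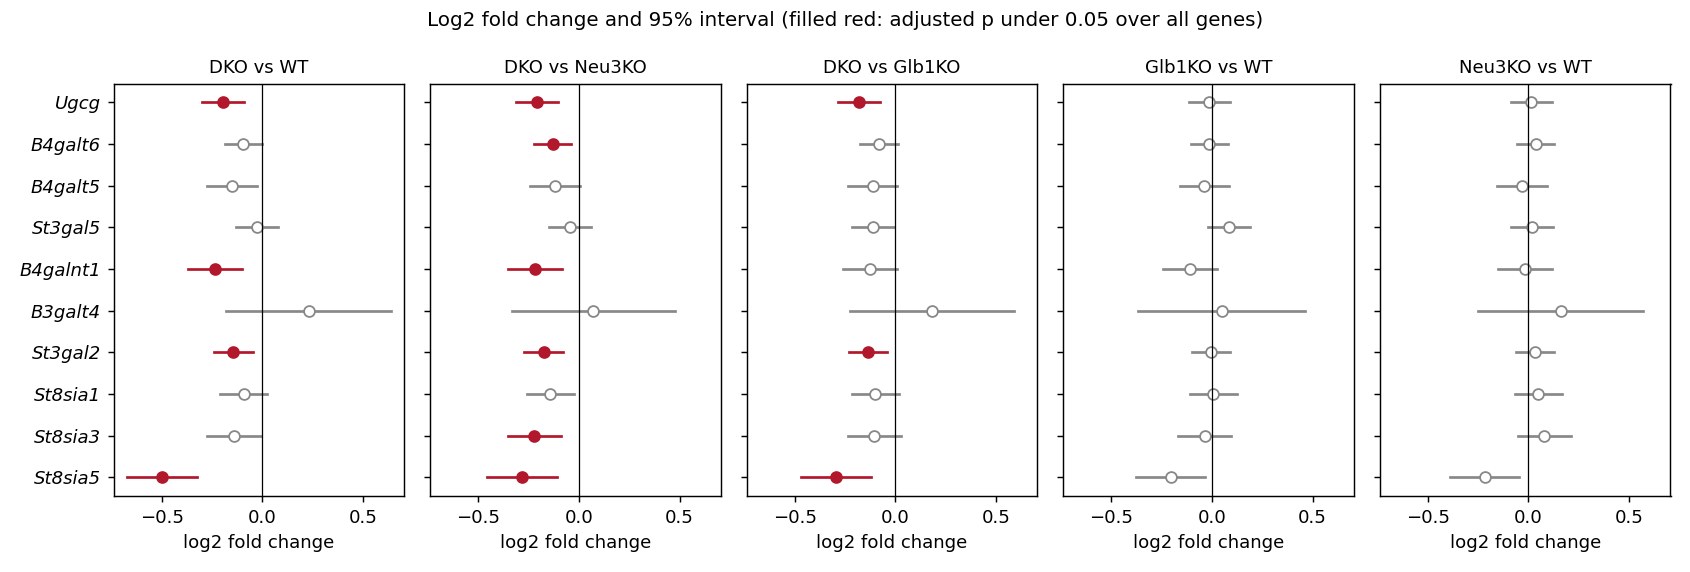
Log2 fold change of each enzyme in 5 comparisons, with 95% intervals and filled points where the adjusted p over all genes was under 0.05. Filled points number 4 in DKO against WT, 6 in DKO against Neu3KO, 3 in DKO against Glb1KO and 0 in each single knockout against WT.

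Ugcg, the glucosyltransferase of the opening step, measured 95.4, 106.2, 101.9, 102.5 and 94.4 CPM in WT and 93.0, 86.7, 82.1, 87.0 and 88.4 in DKO. It measured 102.1, 100.1, 98.5, 101.2 and 93.9 CPM in Glb1KO and 98.5, 98.0, 98.9, 105.9 and 104.0 in Neu3KO. Every DKO library lay below every library of the other 3 genotypes, which overlapped each other. The log2 change of DKO against WT was -0.19 (SE 0.051, adjusted p = 0.00347, edgeR), or 87.4% of WT. It was -0.14 (adjusted p = 0.222) among libraries whose identifiers begin with E, which leave 2 DKO libraries.

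The galactosyltransferases that make lactosylceramide, B4galt6 and B4galt5, did not pass against WT. B4galt6 measured 181.5 to 197.5 CPM in DKO and 191.6 to 220.9 in WT, a log2 change of -0.09 (SE 0.046, adjusted p = 0.123, edgeR). B4galt5 measured 62.6, 57.7, 57.9, 61.0 and 59.9 CPM in WT and 56.6, 49.0, 53.5, 54.0 and 56.2 in DKO. These groups did not overlap, yet the log2 change of -0.15 (SE 0.061) had an adjusted p of 0.0576 (edgeR). The proportion of the 2 isoenzymes differed by less than the spread between libraries: by FPKM, B4galt6 made up 71.4% ± 1.44 (SD, n = 5) of their sum in WT and 72.2% ± 1.32 in DKO. St3gal5, the GM3 synthase, measured 101.7 to 117.7 CPM in DKO and 103.3 to 114.2 in WT. Its log2 change was -0.03 (95% interval -0.13 to 0.08, adjusted p = 0.755, edgeR), and it was above 0, at 0.02, with total-count scaling.

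B4galnt1, the N-acetylgalactosaminyltransferase at the branch into complex gangliosides, measured 83.6, 75.1, 86.3, 87.3 and 73.6 CPM in WT. In DKO it measured 69.4, 75.9, 64.7, 63.0 and 71.8 CPM. DKO replicate 2 lay above 2 WT libraries, and the other 4 lay below all of WT. The log2 change was -0.24 (SE 0.066, adjusted p = 0.00654, edgeR), or 84.9% of WT. It was -0.19 (adjusted p = 0.0829) with the identifier letter as a term and -0.15 (adjusted p = 0.277) among E libraries alone. Slc26a10, on the opposite strand, shares 715 bases, 20.7%, of B4galnt1 exons and stood at 4.93 CPM, and the strand setting of the counting is not given. The ratio of St3gal5 to B4galnt1 by FPKM was 1.81 ± 0.125 (SD, n = 5) in WT, 2.07 ± 0.161 in Glb1KO, 1.85 ± 0.094 in Neu3KO and 2.10 ± 0.218 in DKO, with ranges that overlap. The corresponding ratio of St8sia1 to B4galnt1 was 0.442 ± 0.036 in WT and 0.490 ± 0.067 in DKO, also with overlap.

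B3galt4, the galactosyltransferase that completes GM1, was the rarest enzyme, at 2.44 to 4.23 CPM in WT and 2.12 to 4.76 in DKO. Its log2 change of 0.23 (95% interval -0.18 to 0.64, adjusted p = 0.43, edgeR) left the widest interval of the 10. St3gal2, a sialyltransferase that can make GD1a and GT1b, measured 132.8, 136.2, 140.1, 138.8 and 135.7 CPM in WT. In DKO, St3gal2 measured 126.6, 125.6, 118.7, 125.6 and 122.2 CPM. All 5 DKO libraries lay below all 5 WT libraries. The log2 change was small, -0.14 (SE 0.047, adjusted p = 0.0191, edgeR), or 90.5% of WT. The call was lost without WT replicate 3 (-0.13, adjusted p = 0.0586), WT replicate 4 (-0.13, adjusted p = 0.052) or DKO replicate 3 (-0.12, adjusted p = 0.0852). It was also lost with the identifier letter as a term (adjusted p = 0.0805), among E libraries (adjusted p = 0.33) and with total-count scaling (adjusted p = 0.118).

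St8sia5 had the largest called change of the 10 and St8sia1 and St8sia3 did not pass. St8sia5 measured 63.6, 65.0, 63.9, 61.8 and 66.0 CPM in WT and 51.0, 43.3, 42.0, 51.6 and 38.7 in DKO. WT libraries were tightly grouped and all DKO libraries lay well below them. The log2 change was -0.50 (SE 0.085, adjusted p = 3.13e-05, edgeR), or 70.7% of WT. It was -0.46 (adjusted p = 0.000341) with the identifier letter as a term and -0.43 (adjusted p = 0.000691) among E libraries, and it passed without any of the 10 WT or DKO libraries in turn. Among the 3 sialyltransferases of this family listed here, St8sia5 made up 50.8% of the summed FPKM in WT (49.3 to 51.7) and 44.2% in DKO (41.2 to 47.8). This share was 47.44% (42.45 to 53.04) in Glb1KO and 45.85% (44.06 to 47.73) in Neu3KO. A share wholly below the WT range was thus not particular to DKO. St8sia1, the GD3 synthase, measured 82.7 to 98.2 CPM in DKO and 94.1 to 98.8 in WT, a log2 change of -0.09 (95% interval -0.21 to 0.02, adjusted p = 0.243, edgeR). St8sia3 measured 109.0 to 121.9 CPM in DKO and 120.4 to 136.3 in WT, a log2 change of -0.14 (95% interval -0.27 to -0.01, adjusted p = 0.105, edgeR).

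Markers of several cell types also differed between DKO and WT, where 15.1% of all genes were lower and 14% higher. Of 10 pan-neuronal markers, 5 were lower and none higher in DKO against WT (median log2 change -0.15), and their summed CPM was 6802 to 7256 in WT and 5874 to 6541 in DKO. Of 8 markers of cerebellar and hindbrain neurons, 7 were lower (median -0.88), with sums of 1846 to 2053 in WT and 934 to 1402 in DKO. These 2 sums were lower in every DKO library than in any WT library, whereas the sums of 2 other neuronal lists overlapped. Excitatory neuron sums were 2850 to 3109 in WT and 2722 to 3171 in DKO (3 of 5 markers lower, none higher). Inhibitory neuron sums were 1172 to 1272 and 1093 to 1260 (1 of 6 higher, 2 lower). Astrocyte sums were 4733 to 4968 in WT and 9202 to 10420 in DKO (6 of 7 markers higher). The median log2 change of the astrocyte markers was 0.53 and the largest 4.36. Microglial sums were 172.5 to 216.8 in WT and 488.5 to 589.0 in DKO (7 of 9 higher, median 0.74, largest 3.89). All 8 oligodendrocyte markers were lower, with sums of 5419 to 6156 in WT and 3484 to 4623 in DKO. The part of these markers in the enzyme values was not tested.

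**Figure D4:**
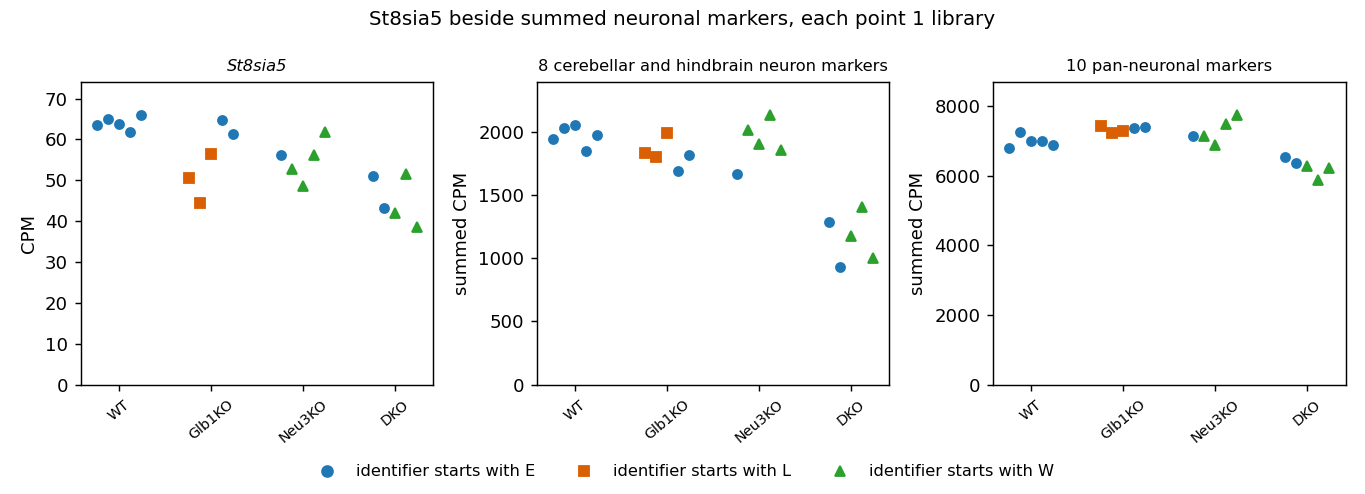
CPM of St8sia5, summed CPM of 8 cerebellar and hindbrain neuron markers and summed CPM of 10 pan-neuronal markers, each point a library, by genotype. In DKO all 3 are below WT, and in the L libraries of Glb1KO St8sia5 is at 44.5 to 56.4 CPM. The excitatory and inhibitory neuron lists, whose sums overlapped between DKO and WT, are not drawn. The relation of the markers to St8sia5 was not tested.

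Loss of Glb1 alone gave no call among the 10 enzymes, while edgeR called 3.96% of all genes. Of the 10, 1 was at an unadjusted p under 0.05, as were 2975 of all genes, and DESeq2 called 0 of the 10. That enzyme was St8sia5, at 50.7, 44.5, 56.4, 64.8 and 61.5 CPM in Glb1KO, a log2 change of -0.21 (SE 0.084, adjusted p = 0.199). The 3 low libraries are those whose identifiers begin with L, and the 2 E libraries lay in or just under the WT range. Among E libraries the log2 change was -0.02. St3gal5 had the highest positive change of the 10, 0.08 (SE 0.052, adjusted p = 0.442). The oligodendrocyte markers were lower for 8 of 8 here, with sums of 3454 to 3926 in Glb1KO. Their part in the enzyme values was not tested.

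Loss of Neu3 alone also gave no call among the 10 (edgeR), with 1 at an unadjusted p under 0.05 and 0 with DESeq2. Of all genes 0% were called by edgeR, with 1105 at an unadjusted p under 0.05 and 2 by DESeq2. The enzyme was again St8sia5, at 56.3, 52.6, 48.6, 56.1 and 61.8 CPM, a log2 change of -0.22 (SE 0.084, adjusted p = 0.767, edgeR). Its highest Neu3KO library and lowest WT library both rounded to 61.8 CPM, with the former just below, so the groups counted as not overlapping, and 0.66% of all genes were lower without overlap. St8sia3 had its highest libraries here, at 132.9, 116.9, 121.3, 146.3 and 161.2 CPM, a log2 change of 0.08 (SE 0.065, adjusted p = 0.919, edgeR). Only Neu3KO replicates 4 and 5 exceeded every WT library.

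Against Glb1KO, where Glb1 is lost on both sides, DKO was lower for 3 of the 10: Ugcg, St3gal2 and St8sia5. Of all genes, 7.29% were lower. Ugcg changed by -0.18 (SE 0.051, adjusted p = 0.0111, edgeR), St3gal2 by -0.14 (SE 0.047, adjusted p = 0.0412) and St8sia5 by -0.29 (SE 0.085, adjusted p = 0.0155). Only Ugcg libraries did not overlap, where 5.25% of all genes were lower without overlap. The call on Ugcg was lost without DKO replicate 3 (adjusted p = 0.0573), with the identifier letter as a term (-0.15, adjusted p = 0.306) and among E libraries (-0.11, adjusted p = 0.617). That on St8sia5 was lost without Glb1KO replicate 4 (adjusted p = 0.0759) or 5 (0.0608), or without DKO replicate 3 (0.059) or 5 (0.0596), and with the compared groups alone (0.0622), while among E libraries it was -0.41 (adjusted p = 0.0117). That on St3gal2 held in 1 of the 10 fits that left out a library, and not with the letter term (adjusted p = 0.182), among E libraries (0.45), with total-count scaling (0.137), without a filter (0.142) and with a stricter one (0.0751).

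Against Neu3KO, where Neu3 is lost on both sides, DKO was lower for 6 of the 10, and 12.8% of all genes were lower. Ugcg changed by -0.21 (SE 0.051, adjusted p = 0.00214, edgeR), B4galt6 by -0.13 (SE 0.046, adjusted p = 0.033) and B4galnt1 by -0.22 (SE 0.066, adjusted p = 0.0129). St3gal2 changed by -0.18 (SE 0.047, adjusted p = 0.00499), St8sia3 by -0.22 (SE 0.065, adjusted p = 0.011) and St8sia5 by -0.28 (SE 0.085, adjusted p = 0.0139). These enzymes run from Ugcg at the start of the pathway to the chain-extending St8sia3 and St8sia5. Ugcg, B4galt6 and St3gal2 libraries did not overlap, where 7.2% of all genes were lower without overlap. St8sia3 was lost without Neu3KO replicate 5 (-0.15, adjusted p = 0.0752). St8sia5 was lost without that library (adjusted p = 0.053), DKO replicate 3 (0.0534) or DKO replicate 5 (0.0535), and B4galnt1 without Neu3KO replicate 2 (0.0501) or DKO replicate 3 (0.0532). B4galt6 was lost in 6 of the 10 fits that left out a library and held in 4 of the 11 other settings. Its adjusted p was 0.207 with total-count scaling, 0.113 without a filter, 0.0683 with a stricter one and 0.0754 with the compared groups alone, and that of B4galnt1 was 0.0519 with total-count scaling. Among E libraries, where Neu3KO has 1 library that is assumed to vary like the others, the 6 had adjusted p from 0.319 to 0.882 (edgeR). St8sia1, at an adjusted p of 0.0666 with all libraries, passed without Neu3KO replicate 2 (0.0451) or DKO replicate 4 (0.0339). The comparisons share the DKO libraries, and those against WT share the WT libraries, so they are not independent of one another.

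The interaction asks whether the change on losing Neu3 differs with and without Glb1. None of the 10 passed (edgeR), while 6.84% of all genes passed. Of the 10, 2 were at an unadjusted p under 0.05, as were 3446 of the 18336 genes tested. Ugcg had -0.20 on the log2 scale (SE 0.072, adjusted p = 0.104) and St3gal2 -0.17 (SE 0.066, adjusted p = 0.134). DESeq2 called both, with adjusted p = 0.0452 for Ugcg and 0.0495 for St3gal2. Of all genes, DESeq2 called 1464 in the interaction. For St8sia5 the interaction was -0.08 (95% interval -0.32 to 0.17, adjusted p = 0.81, edgeR), from values of -0.21 in Glb1KO, -0.22 in Neu3KO and -0.50 in DKO against WT.

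The genes around the 10 enzymes did not all move the same way in DKO against WT. Of all genes tested, 15.1% were lower and 14% higher in that comparison. A list of 18 other genes, mostly sialyl- and glycosyltransferases and not all acting on glycolipids, had 5 lower and none higher. The median log2 change of this list was -0.11. St3gal1, which sialylates galactose on O-glycans and gangliosides, had -0.50 (adjusted p = 0.000114, edgeR), and the related sialyltransferases St6galnac5 and St6galnac3 had -0.27 and -0.34. St3gal3 (-0.19) and B3gnt5 (-0.58) were the others. B3galnt1, the list's most abundant gene at 19.9 FPKM in WT, had -0.05 and did not pass. Ceramide synthesis had 16 tested genes of 19 listed names (Col4a3bp and Cert1 name the same gene), with 2 higher, 2 lower and a median of 0.14. Ormdl1, a regulator of serine palmitoyltransferase, rose by 0.65 and Kdsr by 0.28, while Sptssb, a subunit of that enzyme, had -0.73 and Cers2 -0.21.

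The sialic acid supply list, which also holds a lyase and an exporter, had 4 genes higher and 1 lower of 8 in DKO against WT. The shares of all genes were 14% and 15.1%. The list median was 0.23. Renbp, an N-acetylglucosamine epimerase, rose by 2.08 on the log2 scale, the sialic acid lyase Npl by 1.31, the lysosomal exporter Slc17a5 by 0.38 and the synthase Nans by 0.43. Nanp, at a mean of only 0.862 CPM, had -2.46 (adjusted p = 0.00631, edgeR), and Cmas, which activates sialic acid as its nucleotide sugar, had 0.03 and did not pass. Of 10 genes for UDP-sugar supply and glycolipid transfer, 1 was higher, the galactokinase Galk1 (0.43), with a list median of 0.05. The competing branch to galactosylceramide and sulfatide, the myelin lipids, had 4 of 4 lower: the fatty acid hydroxylase Fa2h (-1.34), the galactosyltransferase Ugt8a (-1.38), the sulfotransferase Gal3st1 (-0.88) and the ceramide synthase Cers2. Those 4 were also lower in Glb1KO against WT, where none of the 10 synthesis enzymes passed. Oligodendrocyte markers, given above, were lower in both comparisons, and a link between these changes was not tested.

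Among 18 genes of ganglioside breakdown, 10 were higher and 2 lower in DKO against WT, with a median of 0.39. Of all genes tested, 14% were higher and 15.1% lower. Ctsa, the protective protein of the Glb1 and Neu1 complex, rose by 1.15 on the log2 scale. Psap, which yields the saposins, was the most abundant and rose by 0.37. The lower genes were Glb1 itself (-2.33) and Neu2 (-0.56). In Glb1KO against WT, 6 breakdown genes were higher and 1 lower, where 3.96% of all genes were called in either direction.

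**Figure D5:**
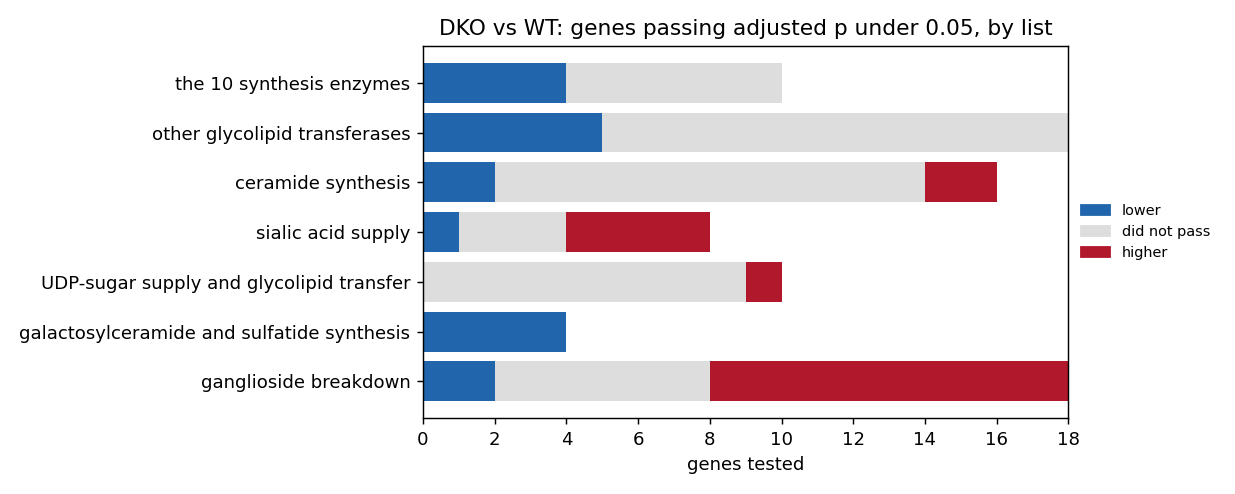
Numbers of genes higher, lower and not passing in DKO against WT for the 10 synthesis enzymes and 6 related lists. Synthesis enzymes split 4 lower and 0 higher, breakdown genes 2 lower and 10 higher. Of all genes tested, 15.1% were lower and 14% higher.

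The genes whose values over the 20 libraries were closest to each called enzyme were found by the root-mean-square difference in log2 CPM, each less its WT mean, among 12256 genes. For Ugcg these were Dnajc6 (0.0485) and Nptn (0.0517), for St3gal2 Atg13 (0.048) and Ndrg4 (0.0509), and for B4galnt1 Bcr (0.0582) and Adgrb2 (0.0698). For St8sia5 the closest, Osbpl3 (0.119) and Luzp1 (0.127), lay farther away. The closest genes of Ugcg changed by -0.21 and -0.17 in DKO against WT, and those of St8sia5 by -0.43 and -0.50. The DKO and WT libraries were among the 20 used to choose these genes, so a like change follows from the choice.

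By the deposited coordinates on GRCm38, the genes lie on 7 chromosomes. Ugcg is ENSMUSG00000028381 at chr4:59189257-59222833, B4galt5 ENSMUSG00000017929 at chr2:167298444-167349183 and St3gal5 ENSMUSG00000056091 at chr6:72097592-72154571. B4galnt1 is ENSMUSG00000006731 at chr10:127165225-127172330, St3gal2 ENSMUSG00000031749 at chr8:110919922-110972480 and the single-exon B3galt4 ENSMUSG00000067370 at chr17:33949909-33951477. St8sia1 is ENSMUSG00000030283 at chr6:142821545-142964452. B4galt6 (ENSMUSG00000056124), St8sia3 (ENSMUSG00000056812) and St8sia5 (ENSMUSG00000025425) lie on chromosome 18, at chr18:20684599-20746404, chr18:64254359-64276146 and chr18:77185853-77255450. Values are of whole genes, exons summed. By the exons of GENCODE M21, St8sia5 shares 387 exon bases (7.12%) with Gm7276 on the opposite strand, which stood at 2.31 CPM. By the same exons, St8sia3 shares 919 (7.85%) with the antisense St8sia3os at 2.08 CPM. The GENCODE M21 spans of St8sia5 and St8sia3 differ from the deposited ones, so these shares may not be those of the exons counted. The deposited lengths are 2097 bases for St8sia5 and 6665 for St8sia3, and FPKM, being scaled to length, depend on the gene model used. None of the 10 lies on chromosome 7 or 9, which hold Neu3 and Glb1.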

How the data were processed

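Polyadenylated RNA from mouse brain was sequenced in 20 libraries. Per the submitters' processing notes, the tools were DESeq2 1.20.0, featureCounts 1.5.0-p3, HISAT2 2.0.5 and fastp, and the builds GRCm38 and mm10, with no role stated. Whether counting used strand is not stated in these notes. The authors deposited whole-number read counts per gene, FPKM per gene (normalized by the authors for length and depth), and a DKO against WT table with log2 fold changes and p-values.

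The deposited counts were analysed with edgeR 4.0.16 (limma 3.58.1) in R 4.3.3: filterByExpr by genotype, TMM factors, a mean per genotype over all 20 libraries and the robust quasi-likelihood F test, with Benjamini-Hochberg adjustment over 18336 genes and a threshold of 0.05. SE is the log2 change divided by the root of F, and intervals are at 95%. The deposited FPKM were used only to set levels of genes beside each other and for shares, without a test. The script was tested on simulated data. Of the deposited log2 and p-value table, the calls on the 10 enzymes are given. Total counts from 15162311 to 25145806 limit the precision of B3galt4 most.

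The 10 genes and all gene and marker lists were chosen with earlier results of these data known. Besides the 10, genes named were, per list, up to 3 with the smallest adjusted p and the 1 with the highest FPKM. For each called enzyme, the 2 closest genes with a mean of at least 5 CPM were named. Genes named beside counts outside that rule (St3gal3, B3gnt5, Kdsr, Nans, Nanp, Neu2) were chosen after their values were seen. A gene that the rule would name is not reported here. Alternatives were other scalings and filters, DESeq2 1.42.0, a fold minimum of 1.2, the compared groups alone, the identifier letter, a replicate block and leaving out each library. Replicate numbers did not pair libraries: over 30 same-number pairs, correlations of deviations ran from -0.129 to 0.0646.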

Additional observations from a re-analysis of the deposited data

Results flagged for a closer look

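B4galt6 drew attention because its libraries lay on opposite sides of the reference mean on loss of Neu3 with and without Glb1. Every Neu3KO library (203.0 to 211.1 CPM) lay above the WT mean, and every DKO library (181.5 to 197.5 CPM) lay below the Glb1KO mean. The libraries themselves overlapped in both comparisons, and neither passed. The log2 change was 0.04 in Neu3KO against WT (adjusted p = 0.956, edgeR) and -0.08 in DKO against Glb1KO (adjusted p = 0.248, edgeR). The interaction, tested over all genes, was -0.12 on the log2 scale (SE 0.065, adjusted p = 0.339, edgeR) and did not pass. Of 40 sets of 5 libraries, 10 enzymes in 4 genotypes, 0 held a library past Dixon's critical value, a check made per enzyme. Over all genes, WT replicate 1 stood apart, as given above.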

How the results depend on the processing

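In DKO against WT, St8sia5 passed in all 11 other settings, Ugcg in 9, B4galnt1 in 8 and St3gal2 in 6. With a fold minimum of 1.2, enzymes called were 1 against WT, 0 against Glb1KO and 0 against Neu3KO, and genes called were 1663 (DKO against WT), 184 (Glb1KO against WT), 782 (DKO against Glb1KO), 1349 (DKO against Neu3KO) and 368 (interaction), beside 5323, 726, 2879, 4606 and 1255. With the identifier letter as a term, 2 enzymes passed in DKO against WT, 1 in DKO against Glb1KO and the same 6 in DKO against Neu3KO. Genes called were 3363, 1203 and 4930, with 315 in Glb1KO against WT. All WT identifiers begin with E and only Glb1KO has L, so the letter is partly confounded with genotype. Among E libraries, enzymes called were 1 in DKO against WT, 1 in DKO against Glb1KO and 0 in DKO against Neu3KO, with 2583, 901 and 882 genes, 323 in Glb1KO against WT, 1 in Neu3KO against WT and 183 in the interaction. Neu3KO has 1 library in that fit, so its comparisons and the interaction rest on an arm of 1 sample, assumed to vary like the other groups. In Neu3KO against WT, genes called were 26 without a filter, 3 from the compared groups alone and 2 with DESeq2. The compared groups alone gave 1 enzyme in DKO against Glb1KO, beside 2859 of all genes. DESeq2 gave 2 enzymes in the interaction, beside 1464 of all genes. No scaling moved the median of all genes by over 0.1; the largest shift was to 0.047, with total counts.

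Leaving out each library gave these ranges of enzymes called: 3 to 4 in DKO against WT, 0 to 3 in DKO against Glb1KO, 3 to 6 in DKO against Neu3KO, and 0 to 0 elsewhere. Genes called ran from 4448 to 5356, 2306 to 3009 and 3783 to 4667, with 551 to 824 in Glb1KO, 0 to 1 in Neu3KO and 984 to 1321 in the interaction.

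The replicate numbers did not pair the libraries. With a replicate block, enzymes called were 4 in DKO against WT, 0 in each single knockout, 2 against Glb1KO, 5 against Neu3KO and 0 in the interaction, with 5207, 685, 0, 2774, 4448 and 1136 genes. No library was closest to its own number (0 of 20).

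Changes of sign touched only values that did not pass. In Glb1KO against WT, St3gal2 turned to 0.0038 (upper quartile), 0.0067 (total counts), 0.0023 (no filter), 2e-04 (stricter filter), 0.0218 (letter term) and 0.0239 (E libraries). Ugcg turned to 3e-04 and B4galt6 to 7e-04 with total counts. With the letter term and among E libraries, B4galt6 turned to 0.0022 and 0.0043, B4galt5 to 0.0865 and 0.0887, B3galt4 to -0.0169 and -0.0147, and St8sia1 to -0.0822 and -0.0801. In Neu3KO against WT, St3gal5 turned to -0.0334, B4galnt1 to 0.0444 and St8sia1 to -0.0017 with the letter term, and Ugcg to -0.0183 and St3gal2 to -0.0143 among E libraries. St3gal5 turned to 0.0202 (total counts) and 0.0057 (stricter filter) in DKO against WT, and to 0.0078 (total counts) in DKO against Neu3KO, where B3galt4 turned to -0.0813 among E libraries. The B3galt4 interaction turned to -0.0058 with the replicate block and -0.0666 among E libraries. Leaving out a library gave ranges across 0 of -0.0299 to 0.0124 for Ugcg, -0.0267 to 0.0255 for B4galt6, -0.0215 to 0.0247 for St3gal2, -0.0186 to 0.028 for St8sia1 and -0.0385 to 0.1547 for B3galt4 in Glb1KO. They were -0.0033 to 0.0392 for Ugcg, -0.0087 to 0.0417 for St3gal5 and -0.0463 to 0.018 for B4galnt1 in Neu3KO, and -0.0447 to 0.0012 for St3gal5 in DKO against WT. For B3galt4 they were -0.0072 to 0.2269 in DKO against Neu3KO and -0.0812 to 0.1777 in the interaction. The cause of these changes was not tested.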
